A study of Mus musculus with 12 samples.

Results

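TRAJ32, TRAJ33, TRAJ34 and TRAJ35 are 4 neighbouring joining (J) segments of the mouse Tcra locus, which encodes the TCRα chain. Their in-frame rearrangements were collected from the TCRα repertoires of newly developed Treg by the name of the J segment, and a rearrangement counted as in frame when its translated CDR3 held neither a stop codon nor a frame shift. This gave 1474 clonotypes (V segment, CDR3 amino acid sequence and J segment) of 20615 in-frame clonotypes, and 12958 of 199248 unique molecular identifiers (UMIs, each tagging 1 cDNA molecule), or 6.50%. TRAJ34 contributed 622 clonotypes and 5644 UMIs, TRAJ33 492 and 3468, TRAJ32 316 and 3652, and TRAJ35 only 44 and 194.

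The repertoires came from thymic CD4+CD8−Thy1.1+GFP+ cells, 100000 per mouse, sorted from individual B6 mice aged 3 weeks, 4 of them wt, 4 Il2° and 4 Il15° (lacking IL-2 or IL-15). All 12 mice, wt included, carried Rag2-Gfp, which marks recently produced T cells, Foxp3-Thy1a, which puts Thy1.1 under the control of the Foxp3 promoter, a rearranged Kaa Tcrb transgene, and 1 functional and 1 null allele of Tcra. All cells thus carried the same β transgene, and each could make only 1 α chain. The tables hold Tcra sequences alone, so the Treg identity of the cells was not checked against other marker genes here. Libraries held 7625 to 25980 UMIs, with 15977 to 25980 in wt, 7625 to 18652 in Il2° and 10751 to 18589 in Il15°. A UMI is a molecule and not a cell, so that fewer cells with a segment and less Tcra RNA per cell cannot be told apart.

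A TCRα chain is made in the thymus when a V segment (TRAV) is joined to a J segment (TRAJ), with bases trimmed from both ends and others added between them. The CDR3, the loop that contacts the peptide bound to MHC, spans this junction, so the J segment fixes the second part of the loop and the trimming and added bases set its middle. A pair of J segments of the locus is also known from T cells with invariant α chains: TRAJ33 joined to TRAV1 in mucosal-associated invariant T (MAIT) cells, and TRAJ18 joined to TRAV11 in invariant natural killer T cells.

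The germline sequences of the 4 segments are shown because they set the residues that their clonotypes share. They lie on the plus strand of chromosome 14 (GRCm38, GENCODE M21 annotation) within 2393 bases, in the order TRAJ35 (chr14:54183774-54183838), TRAJ34 (chr14:54184699-54184756), TRAJ33 (chr14:54185358-54185414) and TRAJ32 (chr14:54186101-54186166), and 34354 bases separate the end of TRAJ32 from the constant gene TRAC. Capitals mark the bases that can enter the CDR3, and the bases in lower case encode the framework after it.
TRAJ32: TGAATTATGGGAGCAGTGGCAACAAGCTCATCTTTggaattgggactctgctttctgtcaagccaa
TRAJ33: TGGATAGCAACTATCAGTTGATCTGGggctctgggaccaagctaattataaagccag
TRAJ34: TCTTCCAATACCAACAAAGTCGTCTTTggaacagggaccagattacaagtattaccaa
TRAJ35: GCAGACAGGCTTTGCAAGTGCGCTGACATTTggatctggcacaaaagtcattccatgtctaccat
Untrimmed, these segments give the CDR3 ends NYGSSGNKLIF (TRAJ32, 11 residues), DSNYQLIW (TRAJ33, 8 residues), SSNTNKVVF (TRAJ34, 9 residues) and QTGFASALTF (TRAJ35, 10 residues). TRAJ33 is the shortest and the one that ends its CDR3 with tryptophan instead of phenylalanine. TRAJ32 is the longest.

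The rearrangements that lead the clonotypes described further on were chosen to show how much of each segment is left after joining. Each line holds the CDR3 of 1 rearrangement, and capitals mark the bases that match the J segment without a break.
TRAV4D-3 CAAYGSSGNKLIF TRAJ32: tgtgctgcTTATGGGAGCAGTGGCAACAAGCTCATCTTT
TRAV4D-3 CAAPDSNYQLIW TRAJ33: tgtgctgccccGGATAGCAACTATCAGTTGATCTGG
TRAV1 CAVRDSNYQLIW TRAJ33: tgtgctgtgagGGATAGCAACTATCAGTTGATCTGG
TRAV4D-3 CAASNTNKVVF TRAJ34: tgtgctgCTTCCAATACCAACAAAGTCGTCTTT
TRAV6D-6 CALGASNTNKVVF TRAJ34: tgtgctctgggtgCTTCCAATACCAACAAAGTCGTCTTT
TRAV7-3 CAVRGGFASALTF TRAJ35: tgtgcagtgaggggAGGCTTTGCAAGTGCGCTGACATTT
These sequences made up 58.3% of the 432 UMIs of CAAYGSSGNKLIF, 40.3% of the 630 UMIs of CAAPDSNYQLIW, all 69 UMIs of TRAV1 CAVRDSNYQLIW, 84.3% of the 856 UMIs of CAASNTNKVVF, 47.7% of the 585 UMIs of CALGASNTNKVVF and 46.2% of the 26 UMIs of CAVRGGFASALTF. The remaining UMIs came from other nucleotide sequences that encode the same residues, 13 sequences in all for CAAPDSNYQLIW and 11 for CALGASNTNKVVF. In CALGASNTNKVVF a second sequence, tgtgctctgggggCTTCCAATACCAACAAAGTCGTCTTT, which encodes the same residues, held another 41.7% of the UMIs. The CDR3 of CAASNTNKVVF and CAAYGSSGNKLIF ran from V-encoded bases almost directly into the J segment.

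The libraries were not fully separate. A rearrangement here is a V segment, a CDR3 nucleotide sequence and a J segment. Of 8186 rearrangements found in exactly 2 of the 12 libraries, 6578 (80.4%) fell in 9 of the 66 possible library pairs, with 356 to 1322 per pair, whereas the other 57 pairs shared 0 to 125 (median 18). Of the 9 pairs, 7 joined mice of 1 genotype, led by wt 1 and wt 2 with 1322, Il15° 1 and Il15° 4 with 1145, and Il2° 2 and Il2° 3 with 999. Both others joined wt and Il2° mice, namely wt 2 with Il2° 1 (888) and wt 4 with Il2° 4 (356). In these pairs 56.4 to 96.1% of the shared rearrangements had a single UMI in at least 1 library of the pair. Among the rearrangements of TRAJ32 to TRAJ35, 576 were in exactly 2 libraries, 474 of them in the same 9 pairs. The cause was not tested. J segment counts of any 2 libraries of 1 genotype differed beyond counting noise (chi-square per degree of freedom 2.68 to 15.6). No library was thus a whole copy of another of its genotype, but this check does not bear on partial sharing. Libraries of different genotypes were not compared in this way. Counted whatever the other libraries held, wt 2 and Il2° 1 shared 2178 rearrangements, 32.6% of those of wt 2 and 61.3% of those of Il2° 1. All 12 were kept as samples, as labelled. Because of this sharing, p-values treat libraries as more separate than they may be. TRAJ32 usage, the mean TRAV4 shares, TRAV1–TRAJ33 and the counts of clonotypes by library are given also in 2 other settings, both chosen after the data were seen. These leave out the rearrangements of exactly 2 libraries, or single-UMI rows that another library held at 2 or more UMIs. The split of TRAJ32 by its tyrosine, single clonotypes and the other pairs are given mainly with all rearrangements.

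Among the 44 TRAJ segments in the tables, TRAJ34 ranked 12 by its mean percent of library UMIs over the 12 mice (2.81%), TRAJ32 18 (1.78%), TRAJ33 20 (1.70%) and TRAJ35 40 (0.0947%). TRAJ32 and TRAJ33 were thus used at about the same level, TRAJ34 more, and TRAJ35 was close to the bottom although it lies beside TRAJ34 on the chromosome. The intervals quoted for shares are 95% Wilson intervals and cover counting error only.

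TRAJ32 was the segment of the 4 whose usage differed between genotypes. Its share of library UMIs was 2.05, 2.07, 2.59 and 2.31% in the 4 wt mice, 1.91, 1.56, 1.54 and 1.57% in Il2° mice, and 1.63, 1.56, 0.939 and 1.61% in Il15° mice. Every Il2° and every Il15° library was lower than every wt library, and both mutants overlapped. The means were 2.26 ± 0.254% (SD, n = 4), 1.65 ± 0.178% and 1.43 ± 0.331% (exact two-sided Mann-Whitney test, p = 0.0286 for each mutant as compared to wt, the smallest p that 4 against 4 allow, and p = 0.886 between the mutants). Of all 40 segments tested, 7.50% were lower in this way in Il2° and 7.50% in Il15° mice. In edgeR's quasi-likelihood test over the 40 segments, TRAJ32 fell by 0.59 on the log2 scale in Il15° as compared to wt mice (SE 0.14, Benjamini-Hochberg adjusted p = 0.00165). It was the only one of the 4 segments called in this comparison, in which 5.00% of all segments were called.

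In Il2° mice the fitted log2 difference of TRAJ32 from wt was −0.41 (SE 0.14, edgeR adjusted p = 0.0519), just outside the threshold of 0.05. None of the 4 segments was called in this comparison by edgeR, DESeq2 or limma, with 1 of the 4 at an unadjusted edgeR p under 0.05, and edgeR called 0% of all segments, DESeq2 2 of the 40 and limma 1. The Il2° value moved across the threshold when 1 library was left out: the adjusted p was 0.0365 without wt 1, 0.0252 without Il2° 1, 0.0484 without Il2° 4, 0.0296 without Il15° 3 and 0.0470 without Il15° 4. Over all 26 alternatives it ranged from 0.0175 to 0.826. Il2° 1, the Il2° library with the highest TRAJ32 share, also shared 61.3% of its rearrangements with wt 2. What this did to its TRAJ32 share was not tested. The Il15° call was lost without Il15° 3, the library with the lowest share (log2 difference −0.44, adjusted p = 0.0727), and when each clonotype was counted once whatever its UMIs (−0.26, adjusted p = 0.329), and held in the other 24 of 26 alternatives (adjusted p from 4.48e-05 to 0.329 over all 26). TRAJ32 was not called between both mutants (−0.17, adjusted p = 0.466), a comparison in which 10.0% of all segments but 0 of these 4 were called, with 0 at an unadjusted p under 0.05 and 0 by DESeq2 and limma.

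Without the rearrangements of exactly 2 libraries the TRAJ32 shares were 2.37 ± 0.219% in wt, 1.65 ± 0.113% in Il2° and 1.44 ± 0.401% in Il15° mice, again without overlap between wt and either mutant. The edgeR log2 differences were then −0.64 in Il15° (adjusted p = 0.00264) and −0.48 in Il2° mice (adjusted p = 0.0487). Without the shared single-UMI rows they were −0.58 (adjusted p = 0.00446) and −0.42 (adjusted p = 0.0592). The differences were of about the same size with and without the shared rearrangements.

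The number of TRAJ32 clonotypes per library was 93, 83, 59 and 73 in wt mice, 58, 69, 70 and 37 in Il2°, and 53, 44, 26 and 55 in Il15° mice. As a share of all in-frame clonotypes, TRAJ32 held 1.87% in wt, 1.59% in Il2° and 1.50% in Il15° mice. This share may still depend on the depth of the library.

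None of the other 3 segments passed the test in any comparison. TRAJ33 took 1.76, 2.18, 1.68 and 1.78% of the library in wt, 1.91, 1.44, 1.49 and 1.15% in Il2°, and 1.50, 2.10, 1.42 and 1.96% in Il15° mice, and the 3 groups overlapped (edgeR log2 difference from wt −0.26, adjusted p = 0.331 in Il2°, and −0.03, adjusted p = 0.846 in Il15°). A single library decided the first of these values, since without Il2° 1 it was −0.40 with an edgeR adjusted p of 0.0439 (range over its 26 alternatives 0.0439 to 0.911). TRAJ34 took 3.07, 2.58, 3.42 and 2.79% in wt, 2.98, 2.49, 2.54 and 2.45% in Il2°, and 3.15, 2.78, 2.65 and 2.84% in Il15° mice (−0.14, adjusted p = 0.592, and 0.00, adjusted p = 0.990, in edgeR). TRAJ34 thus took between 2.45 and 3.42% in all 12 libraries.

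TRAJ35 rested on few molecules. It had 30, 26, 17 and 12 UMIs in wt mice, 13, 10, 26 and 7 in Il2°, and 20, 17, 1 and 15 in Il15° mice, or 0.100 ± 0.0208%, 0.103 ± 0.0481% and 0.0811 ± 0.0512% of the library. With 1 UMI, Il15° 3 stood below all others at 0.00930% (interval 0.00164 to 0.0527%). The fitted difference from wt was 0.06 in Il2° with an SE of 0.55 (edgeR adjusted p = 0.979) and −0.19 in Il15° mice (adjusted p = 0.837), so that a difference was not detectable at this depth.

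**Figure D1:**
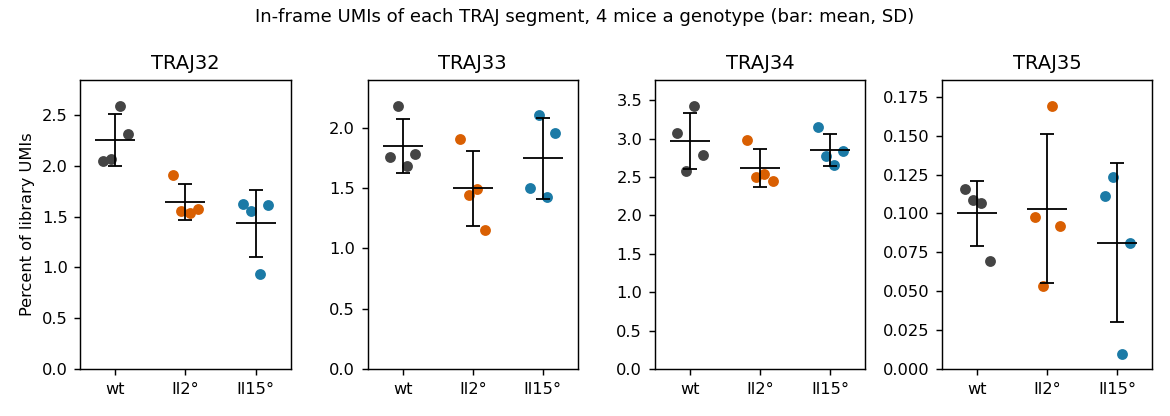
Percent of library UMIs (y axis, a separate scale per panel, each starting at 0) of in-frame TRAJ32, TRAJ33, TRAJ34 and TRAJ35 rearrangements in 4 wt, 4 Il2° and 4 Il15° mice. Points are single mice, and the horizontal bar and whiskers are mean and SD. All TRAJ32 points of both mutants lie below the lowest wt point (2.05%), while the groups overlap for the other 3 segments.

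TRAJ32 was joined mainly to 1 V family. The TRAV4 family made up 77.4, 81.8, 84.3 and 78.1% of TRAJ32 UMIs in wt mice, 68.9, 74.9, 77.2 and 79.2% in Il2°, and 85.0, 79.4, 76.2 and 80.7% in Il15° mice. The mean over 12 mice was 78.6 ± 4.32%, the highest of the 32 TRAJ segments that had at least 30 UMIs in each library, against 31.0% in all other segments together. The share was higher than in the rest in 12 of 12 libraries (exact sign-flip permutation test over libraries, p = 0.000488, the smallest it can give, and 0.000744 after Benjamini-Hochberg adjustment over 32 segments, a test added after the data were seen). All segments of ranks 1 to 11 were higher in 12 of 12 libraries at this same p. Those of ranks 23 to 32 were higher in 0 libraries, also at this p. The count and the p thus do not set TRAJ32 apart, and its mean does. TRAV4 was also above the rest of the repertoire in TRAJ34 (48.6 ± 7.74%, rank 7, against 31.4%) and in TRAJ33 (47.0 ± 8.67%, rank 9, against 31.6%). Without the rearrangements of exactly 2 libraries the TRAV4 shares of TRAJ32, TRAJ33 and TRAJ34 were 82.1, 50.7 and 51.1%. They were 79.5, 47.2 and 49.7% without the shared single-UMI rows. TRAV4D-3 alone accounted for 91.5% of the TRAV4 UMIs of TRAJ32 and TRAV4N-3 for 7.17%, but these V segments are near copies, and the alignment may split reads between them.

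**Figure D2:**
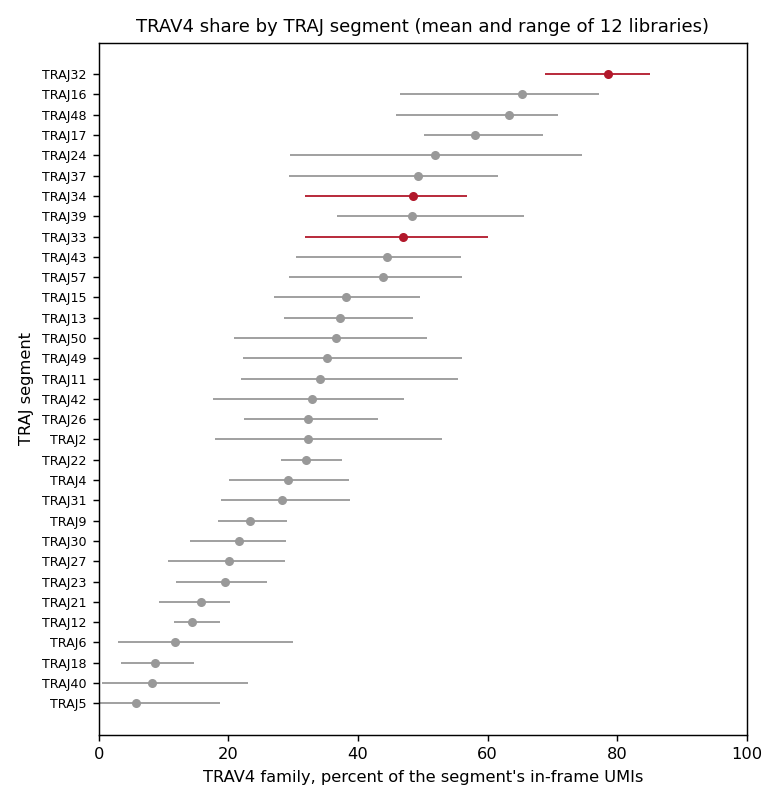
Percent of the in-frame UMIs of each TRAJ segment (x axis) that were joined to the TRAV4 family, for the 32 segments (y axis, in order of the mean) with at least 30 UMIs in each of 12 libraries. Points are means and lines span the lowest to the highest library. TRAJ32, at 78.6%, stands first, and TRAJ34 and TRAJ33 (all 3 in red) stand at ranks 7 and 9.

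The TRAV4 share of TRAJ32 overlapped between the genotypes, at 80.4 ± 3.24% in wt, 75.0 ± 4.45% in Il2° and 80.3 ± 3.62% in Il15° mice. In the segments other than TRAJ32 to TRAJ35 the TRAV4 share was 33.5 ± 2.09% in wt mice, 25.6 ± 1.37% in Il2° and 31.4 ± 1.95% in Il15° mice. The next families of TRAJ32 by mean level were TRAV12 (9.19, 5.53 and 6.67% of its UMIs in wt mice, Il2° and Il15° mice) and TRAV7 (2.34, 5.22 and 2.02%). The TRAV4–TRAJ32 pair, the one with the smallest p of TRAJ32 in both comparisons with wt, had a log2 difference of −0.57 in Il2° (SE 0.21, edgeR adjusted p = 0.159) and −0.61 in Il15° mice (SE 0.21, adjusted p = 0.138) over the 342 pairs tested. It was called in Il2° by DESeq2 (adjusted p = 0.0244) and without Il15° 3 (0.0326), and in Il15° without Il15° 1 (0.0491). Over the 22 alternatives the adjusted p ranged from 0.0244 to 0.527 in Il2° and from 0.0491 to 0.442 in Il15° mice.

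Of the 58 V family–J segment pairs of the 4 segments, 28 passed the filter of 5 UMIs in at least 4 libraries. In Il2° as compared to wt mice edgeR called 0 of these 28, with 4 at an unadjusted p under 0.05, DESeq2 called 1 and limma 0, and 1.17% of all pairs were called. In Il15° as compared to wt mice edgeR, DESeq2 and limma all called 0 of the 28, with 5 at an unadjusted edgeR p under 0.05. Over all pairs edgeR called 0%, DESeq2 1 of the 342 and limma 2. Between Il15° and Il2° mice edgeR called 1 of the 28, beside 4.39% of all pairs, and this was TRAV1–TRAJ33.

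TRAJ32 rearrangements differed in how much of the segment they kept. Those that kept YGSSGNKLIF or the asparagine before it as well held 59.6% of TRAJ32 UMIs on average over the libraries, and 10.3% kept all 11 residues. In the rest, trimming had removed at least the tyrosine. Split in this way, a description chosen after the data were seen and given without a test, the part with the tyrosine took 1.29, 1.30, 1.95 and 1.40% of the library in wt, 1.37, 0.772, 0.839 and 0.931% in Il2°, and 0.921, 0.894, 0.456 and 0.920% in Il15° mice. The part without it took 0.758, 0.774, 0.638 and 0.917%, then 0.542, 0.788, 0.702 and 0.643%, and then 0.705, 0.661, 0.484 and 0.694%. The tyrosine-keeping part therefore averaged 1.48 ± 0.317, 0.978 ± 0.270 and 0.798 ± 0.228% in wt, Il2° and Il15° mice, and the shorter part 0.772 ± 0.114, 0.669 ± 0.103 and 0.636 ± 0.103%. All Il15° libraries were below all wt libraries in the tyrosine-keeping part, as they were in the whole segment. The groups overlapped in the shorter part, but only wt 3 (0.638%) lay within the Il15° range, which reached 0.705%. The Il15° mean was the lowest in both parts. How often such a split separates the genotypes in other segments was not counted. Whether the difference is particular to the tyrosine was not tested.

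**Figure D3:**
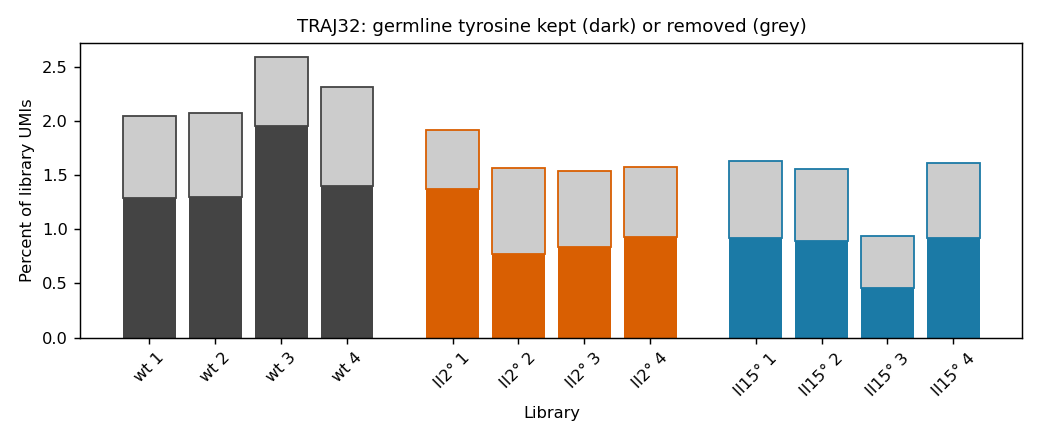
Percent of library UMIs (y axis) of in-frame TRAJ32 rearrangements in each of the 12 libraries (x axis), split into those that keep the germline tyrosine (dark or coloured) and those trimmed beyond it (grey). The tyrosine-keeping part spans 1.29 to 1.95% in wt and 0.456 to 0.921% in Il15° mice. The grey part spans 0.638 to 0.917% in wt and 0.484 to 0.705% in Il15° mice.

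The 3 leading TRAJ32 clonotypes were all joined to TRAV4D-3 and together held 28.6% of TRAJ32 UMIs. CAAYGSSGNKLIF, with the tyrosine, had 58, 53, 48 and 54 UMIs in wt mice, 44, 36, 45 and 23 in Il2°, and 35, 8, 5 and 23 in Il15° mice, or 0.264 ± 0.0485, 0.280 ± 0.0601 and 0.106 ± 0.0681% of the library. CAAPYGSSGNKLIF, with an added proline before the tyrosine, averaged 0.189, 0.146 and 0.0562%. The third of them, in which CAA is followed by a glycine and GSSGNKLIF, so that the glycine stands in place of the tyrosine, averaged 0.161, 0.157 and 0.161% in the same order, and was encoded by 13 nucleotide sequences. The means of the first 2 clonotypes were lowest in Il15° mice and that of the third was level, but none of the 3 passed the edgeR test over the 647 clonotypes of the tables.

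Clonotypes of TRAJ32 with the smallest p were, in Il2° mice, a TRAV4D-3 clonotype in which CAA and an alanine precede YGSSGNKLIF (14, 30, 17 and 9 UMIs in wt against 0, 3, 3 and 0, log2 difference −2.90, SE 1.00, edgeR adjusted p = 0.351) and TRAV4N-3 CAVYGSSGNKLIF in Il15° mice. The latter had 3, 2, 15 and 7 UMIs in wt and 0 in all 4 Il15° libraries (edgeR adjusted p = 0.217), but the same CDR3 with the near copy TRAV4D-3 had 26, 12, 8 and 7 UMIs in wt and 20, 20, 1 and 12 in Il15° mice. With both V names merged, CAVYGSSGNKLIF had 80 UMIs in wt and 53 in Il15° mice, or 0.0987 and 0.0826% of the library on average, so the zero belongs to 1 V name and not to the CDR3. Neither clonotype passed the test. Of the 1474 clonotypes of the 4 segments, 44 could be tested (19 of TRAJ32, 9 of TRAJ33, 16 of TRAJ34 and 0 of TRAJ35), and these had to be present in several libraries. EdgeR called 0 of the 44 in Il2° and 0 in Il15° as compared to wt mice, with 3 and 4 at an unadjusted p under 0.05, and 0 of the 44 in both by DESeq2 and limma. Over all 647 clonotypes edgeR called 0% and 0%, DESeq2 5 and 9, and limma 0 and 2. Between both mutants edgeR called 0 of the 44, with 8 at an unadjusted p under 0.05, DESeq2 called 2 and limma 0, beside 0.618% of all clonotypes called by edgeR. The median log2 difference of the 44 was −0.25 in Il2° and −0.33 in Il15° as compared to wt mice, beside −0.02 and −0.17 over all clonotypes tested.

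TRAJ33 was joined to TRAV4 (47.4 ± 2.23% of its UMIs in wt mice, 40.5 ± 10.5% in Il2° and 53.1 ± 7.41% in Il15° mice), TRAV7 (22.9, 20.1 and 17.3%) and TRAV14 (7.72, 9.06 and 8.93%). Its leading clonotype, TRAV4D-3 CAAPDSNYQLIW, kept the whole germline end DSNYQLIW behind a proline. It had 93, 105, 54 and 58 UMIs in wt mice, 33, 31, 43 and 9 in Il2°, and 83, 38, 5 and 78 in Il15° mice, or 0.367 ± 0.0489, 0.203 ± 0.0742 and 0.301 ± 0.187% of the library. Its mean was lowest in Il2° mice, in which the log2 difference from wt was −0.81 (SE 0.48, edgeR adjusted p = 0.760), and the Il15° libraries were spread widely. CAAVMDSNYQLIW (0.0634, 0.0408 and 0.0488%) and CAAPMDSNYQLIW (0.0541, 0.0254 and 0.0488%) followed.

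The TRAV1–TRAJ33 pair, the V–J combination of MAIT cells, was rare or missing in Il15° mice. It had 16, 28, 5 and 12 UMIs in wt mice, 19, 10, 6 and 18 in Il2°, and 0, 0, 3 and 2 in Il15° mice. These counts were 0.0698 ± 0.0355, 0.118 ± 0.0912 and 0.00967 ± 0.0132% of the library. Every Il15° library was below every wt and Il2° library, and the libraries at 0 allow a share of up to 0.0167% (Il15° 1) and 0.0218% (Il15° 2). The gap was narrow between Il15° 3, at 0.0279% (interval 0.00949 to 0.0820%), and wt 3, at 0.0313% (0.0134 to 0.0732%). How many of all pairs separate in this way was not counted. No Il15° library reached 5 UMIs, so the pair met the filter through wt and Il2° libraries alone. In edgeR the log2 difference between Il15° and Il2° mice was −3.58 (SE 0.93, adjusted p = 0.0101), and that from wt was −2.89 in Il15° (SE 0.92, adjusted p = 0.0837) and 0.69 in Il2° mice (adjusted p = 0.868). An exact two-sided permutation test of the shares, added after the data were seen, gave p = 0.0286 for Il15° against wt and against Il2° mice, and p = 0.429 for Il2° against wt. The value of 0.0286 is the smallest that 4 against 4 allow. It was fixed by the lack of overlap already seen, so it adds nothing to the counts.

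This call rested on 5 Il15° UMIs, and 1 library could end it. Between Il15° and Il2° mice the adjusted p was 0.0888 without Il2° 4, 0.0513 without Il15° 1 and 0.0681 without Il15° 4, whereas without Il15° 3 the difference from wt was called as well (0.0497). Without the rearrangements of exactly 2 libraries the pair had 42, 42 and 5 UMIs in wt mice, Il2° and Il15° mice, and the call was lost (log2 difference −3.18, adjusted p = 0.122). The exact permutation p was then 0.0286 against wt and 0.0571 against Il2°. Without the shared single-UMI rows it had 58, 49 and 3 UMIs and the call was kept (−4.13, adjusted p = 0.0164). The lower Il15° count was thus seen in each of these settings, and the adjusted p ranged from 0.00426 to 0.122 over 23 alternatives, of which 16 kept the call.

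Most TRAV1–TRAJ33 molecules encoded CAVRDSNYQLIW, with 69 of 119 UMIs, 1 nucleotide sequence and 8 libraries (9, 18, 5 and 0 UMIs in wt mice, 15, 9, 3 and 9 in Il2°, and 0, 0, 0 and 1 in Il15° mice). In the sequence printed above, the arginine codon ends in a G that matches the J segment, and all of TRAJ33 but its first base was kept. Its edgeR adjusted p in Il15° as compared to wt mice was 0.238. TRAV1 with the other J segments made up 0.595, 1.01 and 0.512% of the library in wt, Il2° and Il15° mice (exact permutation p = 0.429 for Il15° against wt and 0.114 against Il2°). TRAV11–TRAJ18, the combination of invariant natural killer T cells, made up 0.0594, 0.0302 and 0.0462% (exact permutation p = 0.629 and 0.714). Neither of these V–J groups separated Il15° from the other mice. Whether the TRAV1–TRAJ33 molecules came from MAIT cells in the sorted population was not tested. Without TRAV1, TRAJ33 took 1.78 ± 0.191, 1.38 ± 0.349 and 1.74 ± 0.342% of the library, so that this pair was a small part of the segment.

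**Figure D4:**
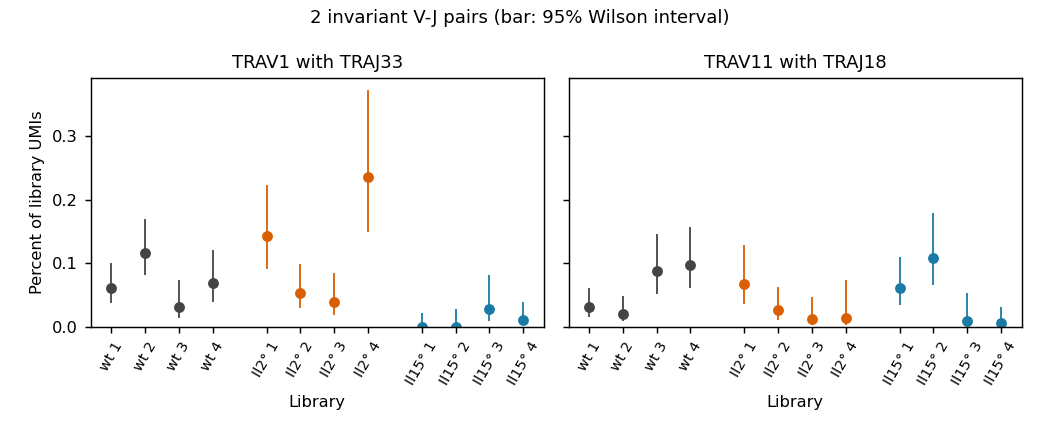
Percent of library UMIs (y axis) of TRAV1–TRAJ33 (left) and TRAV11–TRAJ18 (right) in each of the 12 libraries (x axis), with 95% Wilson intervals for counting error as bars. The 4 Il15° libraries have 0, 0, 3 and 2 UMIs of TRAV1–TRAJ33 and lie below all others on the left, while the genotypes overlap on the right. The intervals of Il15° 3 and wt 3 overlap on the left.

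TRAJ34 was found with 18 V families, 3 of them at 1 UMI each, and these numbers, 16 for TRAJ33, 15 for TRAJ32 and 9 for TRAJ35, were not adjusted for the UMIs of a segment. TRAV4 led TRAJ34 with 50.1 ± 3.78% of its UMIs in wt mice, 42.3 ± 9.15% in Il2° and 53.4 ± 5.92% in Il15° mice, followed by TRAV6 (14.9 ± 3.96, 19.8 ± 2.60 and 16.0 ± 2.53%) and TRAV7 (13.7, 16.1 and 11.4%). The TRAV4–TRAJ34 pair was at a log2 difference of −0.45 in Il2° as compared to wt mice (edgeR adjusted p = 0.372) and of 0.52 in Il15° as compared to Il2° mice (0.147), and TRAV4–TRAJ33 had similar values (−0.50 and 0.58, adjusted p = 0.372 and 0.159). TRAV13–TRAJ34 had 3, 8, 12 and 6 UMIs in wt mice, 7, 1, 2 and 1 in Il2°, and none in Il15° mice. The edgeR adjusted p for Il15° as compared to wt mice was 0.0835. This pair met the filter through wt and Il2° libraries alone. The size of its difference is not given, because the Il15° counts were 0 and the wt counts varied between mice. None of these pairs passed the test.

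The 3 leading TRAJ34 clonotypes held 32.4% of its UMIs. TRAV4D-3 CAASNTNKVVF, the most abundant clonotype of the 4 segments, had 153, 95, 65 and 65 UMIs in wt mice, 36, 45, 71 and 43 in Il2°, and 104, 56, 32 and 91 in Il15° mice, or 0.442 ± 0.0988, 0.385 ± 0.154 and 0.443 ± 0.119% of the library. TRAV6D-6 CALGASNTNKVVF had 61, 57, 75 and 49, then 42, 51, 52 and 23, and then 59, 38, 26 and 52 UMIs (0.306, 0.307 and 0.281%). Both were found in all 12 mice at about the same level in each genotype. TRAV4D-3 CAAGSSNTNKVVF averaged 0.212, 0.113 and 0.234%. The clonotypes with the smallest p were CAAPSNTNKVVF in Il2° (34, 3, 75 and 31 UMIs in wt against 3, 1, 8 and 2, log2 difference −2.77, SE 0.94, edgeR adjusted p = 0.351) and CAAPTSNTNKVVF in Il15° mice (2.78, SE 1.40, adjusted p = 0.853), of which Il15° 3 alone held 22 UMIs. Neither passed the test.

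TRAJ35 was joined to TRAV4, TRAV7 and TRAV9. Of its 85 UMIs in wt mice 41 were TRAV4, 37 TRAV7 and 0 TRAV9. Of its 56 UMIs in Il2° mice the numbers were 14, 24 and 9, and of its 53 UMIs in Il15° mice 12, 16 and 11. The TRAV9 UMIs came from few libraries, 0, 1, 5 and 3 in the 4 Il2° and 9, 1, 1 and 0 in the 4 Il15° mice. Means over libraries are not given for these shares, because Il15° 3 holds a single TRAJ35 UMI. The TRAV4–TRAJ35 pair had 8, 10, 14 and 9 UMIs in wt mice, 1, 0, 10 and 3 in Il2°, and 6, 0, 0 and 6 in Il15° mice (edgeR adjusted p = 0.873 and 0.674 as compared to wt). Its leading clonotype, TRAV7-3 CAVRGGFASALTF, had 11 and 5 UMIs in wt 1 and wt 2, 6, 2, 1 and 1 in Il2° mice, and none elsewhere. TRAV4D-3 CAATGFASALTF had 0, 1, 6 and 4 UMIs in wt mice, 1, 0, 0 and 1 in Il2°, and 0 in Il15° mice, and TRAV7-3 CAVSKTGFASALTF 1 to 3 UMIs in each of the 6 libraries that held it. No TRAJ35 clonotype was found in all 12 mice.

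The CDR3 of the 4 segments differed in length as their germline ends do. The UMI-weighted mean length over the 12 mice was 13.6 residues for TRAJ32, 12.3 for TRAJ33, 12.5 for TRAJ34 and 13.4 for TRAJ35 (13.2 over its pooled UMIs), beside a mean of 13.2 over the segments with enough UMIs, among which TRAJ33 ranked 3 and TRAJ34 4 from the shortest of 32. TRAJ32 CDR3 had 13 residues in 46.9% and 14 in 33.3% of UMIs, and TRAJ33 CDR3 12 in 42.3% and 13 in 37.5%. TRAJ34 showed peaks at 11 residues (23.0%), where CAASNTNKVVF lies, and at 13 (42.2%), where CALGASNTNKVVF lies, with 13.8% between them.

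**Figure D5:**
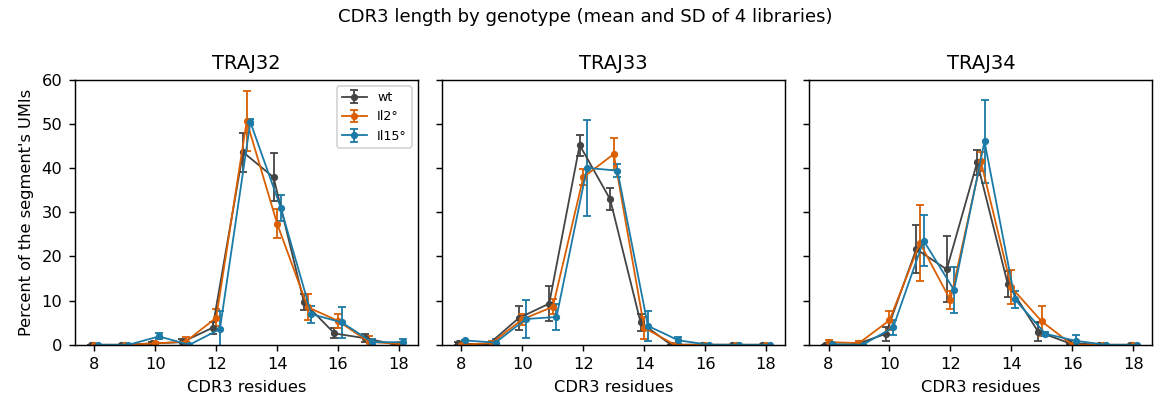
Percent of the UMIs of TRAJ32, TRAJ33 and TRAJ34 (y axis) by CDR3 length in residues (x axis), as mean and SD of 4 libraries for wt, Il2° and Il15° mice, drawn slightly apart. TRAJ32 peaks at 13 residues, TRAJ33 at 12 and 13, and TRAJ34 at 11 and 13, in all 3 genotypes.

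At the junction, TRAJ33 carried the most added bases, 2.85 on average between the V and the J part, against 1.92 in TRAJ32, 1.94 in TRAJ34 and 2.01 in TRAJ35. Over the pooled UMIs of all libraries, an average chosen after the data were seen because of the 1-UMI library of TRAJ35, joining without any added base was found in 36.0% of TRAJ34, 40.2% of TRAJ35, 25.3% of TRAJ32 and 20.3% of TRAJ33 UMIs. The J part of the CDR3 kept 29.9 bases in TRAJ32, 23.7 in TRAJ33, 25.4 in TRAJ34 and 26.9 in TRAJ35. All germline residues or all but the first were kept in 61.2% of TRAJ32, 86.0% of TRAJ33, 78.1% of TRAJ34 and 47.9% of TRAJ35 UMIs. By this count of residues TRAJ33, the shortest segment, kept most of its germline end. Counted in germline bases lost, TRAJ34 came before TRAJ33. TRAJ34 lost 2.09, 2.67 and 1.94 bases in wt, Il2° and Il15° mice, and TRAJ33 3.15, 3.01 and 3.32. TRAJ35 lost 4.53, 5.34 and 3.50 bases, the last mean with its 1-UMI library, and TRAJ32 5.18, 5.66 and 5.68.

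Glycine was the most frequent residue between the V and the J part of TRAJ32 (20.2% in wt, 26.1% in Il2° and 28.6% in Il15° mice), as a mean over libraries, and also of TRAJ34 in each genotype (18.4% in wt). In TRAJ33 proline (17.6, 14.2 and 17.4%) and arginine (15.6, 18.5 and 17.2%) were at a like level, and arginine was ahead in Il2° mice only. Glycine was at 12.7, 16.9 and 14.6% in TRAJ33, above proline in Il2° mice. TRAJ35 had too few UMIs to rank its residues, since glycine led in wt (26.3%), arginine in Il2° (23.6%) and serine in Il15° mice (35.1%, with a 1-UMI library among them). The mean Kyte-Doolittle hydropathy of the central CDR3 residues, in which negative values stand for hydrophilic residues, was −1.21, −1.81, −1.73 and 0.0665 in TRAJ32, TRAJ33, TRAJ34 and TRAJ35 (0.100 over the pooled TRAJ35 UMIs). The central residues leave out the first 3 and the last 4 of the CDR3. To this part germline TRAJ35 brings phenylalanine and alanine among others, and the other 3 segments asparagine and serine among others. The last 4 germline residues of each segment hold leucine or valine and do not enter the measure.

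Few of these CDR3 features separated the genotypes. Each of 4 features was compared for TRAJ32, TRAJ33 and TRAJ34 between the 3 genotypes, 9 comparisons a feature, and TRAJ35 had too few UMIs. CDR3 length separated the groups without overlap in 0 of 9 comparisons (11.5% over all segments and comparisons), the number of added bases in 0 of 9 (1.04%), and hydropathy in 0 of 9 (3.12%). The J-encoded bases kept did so in 1 of 9 (9.38%): TRAJ34 kept 25.6 ± 0.112 bases in Il15° and 25.1 ± 0.331 in Il2° mice (exact Mann-Whitney test, p = 0.0286, 0.229 after Benjamini-Hochberg adjustment over the 32 segments). The difference was a fraction of 1 base.

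Of the 1474 clonotypes, 10 (0.678%) were found in all 12 libraries, beside 0.844% of all clonotypes. They comprised 4 of TRAJ32, 2 of TRAJ33 and 4 of TRAJ34, and 8 of the 10 used TRAV4D-3, the others TRAV6D-6 and TRAV12N-3. At the other end, 820 (55.6%) were found in 1 library, beside 52.6% of all. Found in all 4 mice of a genotype were 47 in wt, 33 in Il2° and 32 in Il15° mice, without adjustment for the depth of the libraries, which was highest on average in wt. Of the 47 of wt, 4 were absent from all Il2° and 4 from all Il15° libraries, 8.51% each, beside 5.83% and 12.1% of all such clonotypes. The 4 absent from Il15° mice were TRAV4N-3 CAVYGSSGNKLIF and TRAV4D-3 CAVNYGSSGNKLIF of TRAJ32 (27 and 25 UMIs in wt), TRAV7-4 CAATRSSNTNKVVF of TRAJ34 and TRAV12-3 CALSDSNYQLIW of TRAJ33, the last 2 with 1 or 2 UMIs per wt library. The first of these was present in all 4 Il15° libraries under the near copy TRAV4D-3. With V copies merged, a setting chosen after the data were seen, 53 clonotypes were found in all wt mice, of which 4 (7.55%) were absent from Il2° and 7 (13.2%) from Il15° mice, beside 4.65% and 10.7% of all such clonotypes. Without the rearrangements of exactly 2 libraries 10 clonotypes remained in all 12 libraries, and without the shared single-UMI rows 7. In these 2 settings 877 of 1155 and 1061 of 1474 clonotypes were found in 1 library. Found in all 4 mice were 37 and 33 in wt, 28 and 20 in Il2°, and 24 and 16 in Il15° mice. Of those of wt, 2 and 3 were absent from all Il2° and 3 and 4 from all Il15° libraries.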

How the data were processed

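TCRα cDNA libraries of 12 mice were analysed. According to the study's methods, the authors filtered reads on quality and built consensus sequences of UMIs with at least 2 reads in pRESTO, aligned and assembled them in MiXCR, and wrote VDJtools tables. Versions are not given in the sources used here, and the submitters' processing notes name mm10. The deposited count of a row is its number of UMIs, from which the authors also computed a fraction of the total UMIs, the count over their sum. Genotypes came from the labels.

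In-frame counts were summed by J segment, by V family and J segment, and by clonotype, and fitted over the whole table (edgeR 4.0.16, quasi-likelihood, TMM, Benjamini-Hochberg, threshold 0.05) with all 12 libraries and 3 contrasts. Filters were 10 UMIs (segments) or 5 UMIs (pairs and clonotypes) in at least 4 libraries. Shares and CDR3 measures, for segments with at least 30 UMIs in each library, were compared with exact Mann-Whitney tests (scipy 1.17.1). DESeq2 1.42.0 and limma 3.58.1 (percent of library, pseudocount 0.01) were alternatives. The fits were also run on simulated data, with larger changes than those of TRAJ32 and no sharing between libraries. Those runs do not bear on the calls given here. R 4.3.3 and Python 3.11.15 were used.

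Named in the text are, for each segment, the 3 V families and 3 clonotypes with the highest mean level, every pair or clonotype called, and those with the smallest p in each comparison with wt, while others were chosen after their values were seen. CDR3 of 15 residues or more are not spelled out. The members and lists were chosen with earlier results of these data known. Rows whose V or J position lay outside the CDR3 (283 UMIs over all segments) were left out of the counts of added and kept bases. Near-identical V segments (names with D or N) were merged by family, because the alignment may split them. Wilson intervals and floors of 3 UMIs cover counting error only.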

Additional observations from a re-analysis of the deposited data

Results flagged for a closer look

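Of 123 sets of 4 libraries examined, 10 had a highest or lowest library far from the others (Dixon's 95% critical value for the gap over the range), and chance alone flags about 1 in 20 such sets. In TRAJ32 these were Il2° 1, at 1.91% of the library with the other Il2° mice at 1.54 to 1.57%, and Il15° 3, at 0.939% with the others at 1.56 to 1.63%. The TRAV7 share of TRAJ33 in wt was 16.5% in 1 mouse and 24.4 to 25.4% in the others, the TRAV7 share of TRAJ34 in wt 8.04% against 15.1 to 16.2%, and the TRAV4 share of TRAJ34 in Il15° 44.5% against 55.8 to 56.8%. Among clonotypes, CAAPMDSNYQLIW of TRAJ33 reached 0.125% of the library in 1 wt mouse (others 0.0289 to 0.0313%), and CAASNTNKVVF of TRAJ34 0.589% in wt 1 (others 0.375 to 0.407%). The TRAJ35 clonotypes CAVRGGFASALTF and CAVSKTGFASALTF were highest in Il2° 1, at 0.0452% (6 UMIs, others 0.00650 to 0.0131%) and 0.0226% (3 UMIs, others 0). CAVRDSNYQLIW with TRAV1 was at 0.00538% (1 UMI) in Il15° 4 and at 0 in the other Il15° mice. Where all other libraries are at 0, this rule flags any count.

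TRAV1–TRAJ33 was called between Il15° and Il2° mice, with a log2 difference of −3.58 in edgeR's test of that contrast. In neither mutant was it called as compared to wt. The call rested on 5 Il15° UMIs, and 16 of 23 alternatives kept it.

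Rearrangements out of frame or with a stop codon, which enter no comparison, made up 4.52% of all TRAJ32 UMIs (173 of 3825), 1.25% for TRAJ33 (44 of 3512), 1.91% for TRAJ34 (110 of 5754) and 10.6% for TRAJ35 (23 of 217), beside 4.37% over all segments.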

How the results depend on the processing

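With another setting and all libraries kept, the count of the 4 segments called in Il2° as compared to wt mice went from 0 to 1 (TRAJ32) when libraries were scaled by size only, with DESeq2's size factors in edgeR, without the low-count filter, without rearrangements of exactly 2 libraries, with all reading frames, or without the largest clonotype. In Il15° as compared to wt mice it went from 1 to 0 with each clonotype counted once. Pairs called went from 0 to 1 in Il2° as compared to wt mice with DESeq2. Between both mutants they went from 1 to 2 with DESeq2 or limma, and to 0 with only both genotypes fitted, with libraries thinned to 7625 UMIs, without rearrangements of exactly 2 libraries, or with deposited V names, and clonotypes called went from 0 to 2 with DESeq2. The J-encoded bases kept separated groups in 0 comparisons with each clonotype counted once and in 2 with clonotypes of at least 2 UMIs, without the largest clonotype, or without rearrangements of exactly 2 libraries, and hydropathy in 1 with each clonotype counted once or without the largest clonotype. The setting without rearrangements of exactly 2 libraries was chosen after the data were seen.

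Leaving out 1 library gave 0 to 2 segments in Il2° and 0 to 1 in Il15° as compared to wt mice and 0 between the mutants, 0 to 1, 0 to 1 and 0 to 3 pairs, 0 clonotypes in each comparison, and 0 to 1, 0 to 1, 1 to 2 and 0 to 1 comparisons without overlap for CDR3 length, added bases, J-encoded bases and hydropathy. The 2 segments were found without Il2° 1, and the 3 pairs without Il15° 2.

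Differences near 0 changed sign. For TRAJ34 in Il15° as compared to wt mice (0.00) they were −0.0025 with DESeq2, −0.051 with limma, −0.053 with library size only, −0.0039 with DESeq2's size factors, −0.0083 without the filter, −0.012 with 2 genotypes, −0.028 thinned, −0.0040 without rearrangements of exactly 2 libraries, −0.045 with all frames and −0.016 without the largest clonotype. For TRAJ33 in Il15° as compared to wt mice (−0.03) they were 0.013 with each clonotype once and 0.0011 without the largest. For TRAJ35 they were −0.034 with limma, −0.041 with clonotypes of at least 2 UMIs and −0.075 without shared single-UMI rows in Il2° as compared to wt mice (0.06), and without the largest clonotype 0.074 in Il15° as compared to wt (−0.19) and 0.051 between the mutants (−0.25). With 1 library left out the ranges were −0.34 to 0.29, −0.39 to 0.10 and −0.56 to 0.14 for TRAJ35 in the 3 comparisons, −0.14 to 0.060 for TRAJ33 and −0.13 to 0.090 for TRAJ34 in Il15° as compared to wt, and −0.17 to 0.14 for TRAV4–TRAJ32 between the mutants.

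No general pairing of the mice by replicate number was seen. Deviations from the group means of same-numbered libraries correlated at −0.492 to 0.405 over segments, 4 of 12 pairs above 0.1. Of 12 libraries, 3 correlated best with their own number. The highest value, 0.405, was that of wt 4 and Il2° 4, a leading pair for shared rearrangements (356). Whether mice shared litters or batches was not tested. With the replicate block the member calls stayed at 0, 1 and 0 segments, 0, 0 and 1 pairs and 0 clonotypes, with TRAJ32 at −0.61 (edgeR adjusted p = 0.0122) in Il15° and −0.42 (0.0751) in Il2° mice. Over all features the calls in the 3 comparisons were 0, 2 and 4 segments (0 to 7, 0 to 3 and 1 to 4 over the alternatives), 4, 0 and 15 pairs (0 to 16, 0 to 7 and 0 to 23) and 0, 0 and 4 clonotypes (0 to 5, 0 to 9 and 0 to 13). Depth limits TRAJ35, the rare pairs and all but 44 clonotypes. The causes of these changes were not tested.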
